A study of Arabidopsis thaliana with 4 samples.

Results

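The genes described here are 4 UDP-glycosyltransferases that attach glucose to plant hormones: UGT76C2 (AT5G05860) and UGT73C1 (AT2G36750), which act on cytokinins, UGT74D1 (AT2G31750), which acts on auxin, and UGT71C5 (AT1G07240), which acts on abscisic acid. They were chosen by locus, among 5415 genes for which the platform annotation assigns a probe to that locus alone, and each of the 4 had 1 such probe. UGT76C2 was also listed on 2 probes shared with other genes and UGT71C5 on 1, and these shared probes were not used. Total RNA from inflorescences of the Arabidopsis thaliana mutant apetala1 and of wild type was hybridised together on each of 4 long-oligonucleotide arrays, called sets 1 to 4, and the deposited value of a probe is the log2 ratio of the 2 channels. Channel 1 held the apetala1 RNA on sets 1 and 3 and the wild-type RNA on sets 2 and 4. The allele, the accession of the plants, their age, growth and stage, and whether each set had plants of its own, were not found in the labels. The spread behind every p-value is that of these 4 arrays, and it may be technical.

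Glucosylation takes a hormone out of its active pool. UGT76C2 adds glucose to nitrogen atoms of the cytokinin ring, which inactivates the hormone, whereas UGT73C1 adds it to the side chain of zeatin-type cytokinins and gives O-glucosides, which are regarded as a storage form. UGT74D1 forms glucose esters of indole-3-acetic acid and of its oxidised form, and UGT71C5 forms the glucose ester of abscisic acid, from which the hormone can be released again by glucosidases. APETALA1 (AP1), of the MADS-box group of transcription factors, acts in the floral meristem, the first whorls of the flower depend on it, and it is known to lower cytokinin there by acting on genes of cytokinin activation and degradation. No probe was assigned to AP1 alone (0 probes), so the mutated gene could not be used to check the labels. A ratio of 2 RNAs gives no level in either of them, and in whole inflorescences fewer cells of a type and less RNA per cell cannot be told apart.

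The sign of a ratio rests on a choice about the arrays. The labels do not say which channel is the numerator. Values are therefore given in the sign of sets 1 and 3, with those of sets 2 and 4 turned to match the channel order, so that no value can be read as higher or lower in apetala1. Across all features tested, and before turning, arrays of opposite channel order correlated at r = -0.38, -0.22, -0.07 and -0.07, and arrays of the same order at 0.34 and 0.24, once values at the deposited limits of plus and minus 6.64 were left out. These are descriptions across features of arrays that share both RNAs. None of the 16 values of the 4 genes lay at a limit (0 of 16).

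None of the 4 genes differed between apetala1 and wild-type inflorescences after adjustment over all 25415 features (limma, 0 of 4 at an adjusted p under 0.05, against 0.22% of all features). At an unadjusted p under 0.05 there was 1 of 4, UGT74D1, against 16.3% of all features. The mean log2 ratios ran from -0.67 for UGT73C1 to 0.44 for UGT74D1, with 3 genes positive and 1 negative, where 47.0% of all features had a positive mean. UGT74D1 was also the 1 gene of the 4 with the same sign on all 4 arrays, which 27.3% of the features with 4 values had. Over all features the median of the mean log2 ratio was -0.02, and the middle 50% lay between -0.18 and 0.17, so UGT74D1, UGT71C5 and UGT73C1 lay outside that range and UGT76C2 inside it.

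UGT74D1, the auxin glucosyltransferase, had turned log2 ratios of 0.33, 0.32, 0.20 and 0.92 on sets 1 to 4. Sets 1 to 3 lay close together and set 4 lay above them. As deposited, its values were positive on sets 1 and 3 and negative on sets 2 and 4, so the sign changed with the channel order on every array. Its mean was 0.44 ± 0.32 (SD, n = 4), a 1.36-fold ratio, with a 95% limma interval from 0.06 to 0.82 (unadjusted p = 0.0299, limma adjusted p = 0.26). The mean was 0.26 on sets 1 and 3 and 0.62 on sets 2 and 4, and it was 0.28 without set 4. Of all features, 17.1% had a larger absolute mean.

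UGT73C1, which forms O-glucosides of zeatin, had turned log2 ratios of -1.19, -1.35, -0.39 and 0.23 on sets 1 to 4. Sets 1 and 2 were far below 0, set 3 was nearer to it, and set 4 lay on the other side. Its mean was -0.67 ± 0.74 (SD, n = 4), a 1.6-fold ratio in the negative direction. The 95% limma interval on the log2 scale ran from -1.37 to 0.02 (unadjusted p = 0.0554, limma adjusted p = 0.318). The mean was -0.79 on sets 1 and 3 and -0.56 on sets 2 and 4. It had the widest spread of the 4 genes, and 9.5% of all features had a larger SD. Its size depended on the array left out: it was -0.98 without set 4 and -0.45 without set 2, and the gene did not pass in either (limma adjusted p = 0.203 and 0.564).

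UGT76C2, which forms cytokinin N-glucosides, had turned log2 ratios of -0.07, 0.14, -0.17 and 0.64 on sets 1 to 4. Only set 4 lay far from 0. As deposited the values were -0.07, -0.14, -0.17 and -0.64 on sets 1 to 4, all negative, so this gene kept 1 sign whichever RNA was in channel 1. The same held as deposited for 11.7% of the features with 4 values. Its mean after turning was 0.14 ± 0.36 (SD, n = 4; 95% limma interval -0.27 to 0.54, limma adjusted p = 0.722). The mean was -0.12 on sets 1 and 3 and 0.39 on sets 2 and 4, so the channel orders disagreed in sign. It was -0.03 without set 4, and with no array turned it was -0.26 ± 0.26 (limma adjusted p = 1).

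UGT71C5, the abscisic acid glucosyltransferase, had turned log2 ratios of 0.75, 0.24, -0.01 and 0.11 on sets 1 to 4. Set 1 lay above the other arrays, and set 3 lay at 0. Its mean was 0.27 ± 0.33 (SD, n = 4), a 1.21-fold ratio, with a 95% limma interval from -0.12 to 0.66 (limma adjusted p = 0.452). The mean was 0.37 on sets 1 and 3 and 0.18 on sets 2 and 4, and it was 0.11 without set 1.

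**Figure D1:**
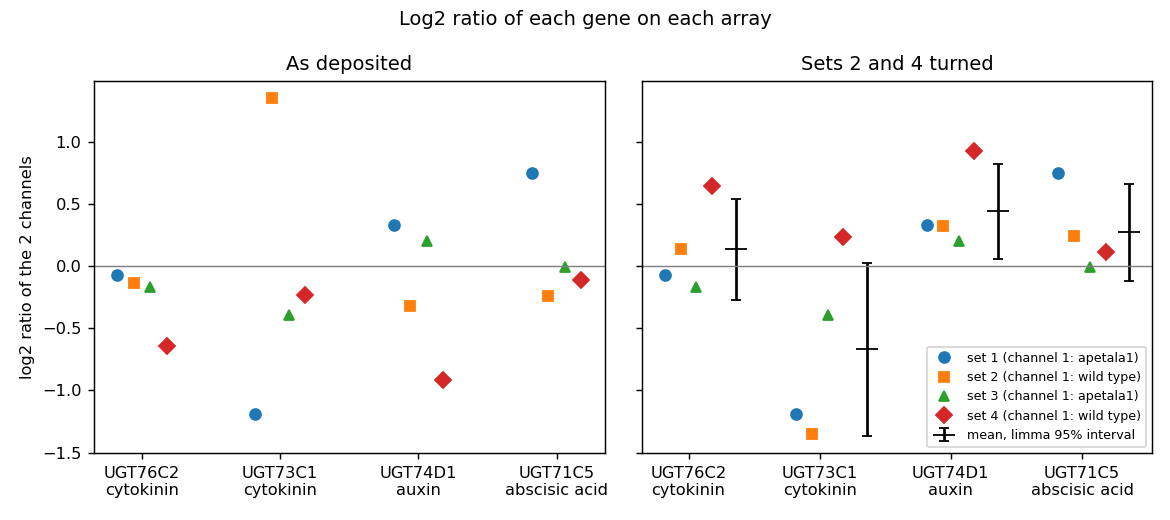
Log2 ratio of the 2 channels (vertical axis) for each of the 4 genes on each array, as deposited on the left and with sets 2 and 4 turned on the right, where black bars give the mean and the 95% limma interval. UGT74D1 is the gene with all 4 turned values above 0, from 0.20 to 0.92, and UGT76C2 is the gene with all 4 deposited values below 0.

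The 95% limma intervals of the single genes, which are not adjusted for the number of features, ran from 0.828 to 1.46 as a linear ratio for UGT76C2 and from 0.921 to 1.58 for UGT71C5. For UGT74D1 the bounds were 1.04 and 1.77, although its adjusted p was 0.26. For UGT73C1 they were 0.387 and 1.01, the widest of the 4 on the log2 scale. An adjusted p above the threshold does not show that a transcript was equal in both genotypes.

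Both genes were read on the same array in every comparison between members, so their log2 ratios were subtracted array by array. With 4 arrays the exact two-sided sign-flip permutation test cannot give a p below 0.125, so none of the 6 pairs could pass. From highest to lowest the order of the mean log2 ratios was UGT74D1, UGT71C5, UGT76C2 and UGT73C1. UGT74D1 exceeded UGT71C5 by 0.17 ± 0.50 on average, higher on 3 of 4 arrays (exact p = 0.625, adjusted over 6 pairs 0.625). UGT71C5 and UGT76C2 differed by less than their spread too, with a mean of -0.14 ± 0.55 for UGT76C2 minus UGT71C5 (exact p = 0.625, adjusted 0.625).

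Of the 2 cytokinin genes, UGT76C2 had the higher turned ratio on all 4 arrays. No share of other gene pairs that keep 1 order on all 4 arrays is given here for comparison. UGT76C2 minus UGT73C1 was 1.12, 1.49, 0.22 and 0.41 on sets 1 to 4, a mean of 0.81 ± 0.60 (exact p = 0.125, adjusted 0.25). The gap was wide on sets 1 and 2 and narrow on sets 3 and 4. UGT73C1 lay below UGT74D1 on all 4 arrays as well, with differences of -1.51, -1.68, -0.60 and -0.68 (mean -1.12 ± 0.56; exact p = 0.125, adjusted 0.25). Against UGT71C5 it was lower on 3 of 4 arrays, with a mean of -0.95 ± 0.98 (exact p = 0.25, adjusted 0.375).

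UGT76C2 and UGT74D1 varied nearly in parallel over the arrays. Their difference was -0.39, -0.18, -0.38 and -0.28 on sets 1 to 4, a mean of -0.31 ± 0.10 (exact p = 0.125, adjusted 0.25), and its SD was the smallest of the 6 pairs. Both had their highest turned value on set 4. This was not theirs alone, since the median of the 20 measured UDP-glycosyltransferase genes was also highest there. That median was 0.08, -0.05, 0.03 and 0.22 on sets 1 to 4. With no array turned, 0 of the 6 pairs kept 1 order on all 4 arrays, against 3 of 6 here. For these 3 pairs the loss follows from the turning itself and is no separate result.

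**Figure D2:**
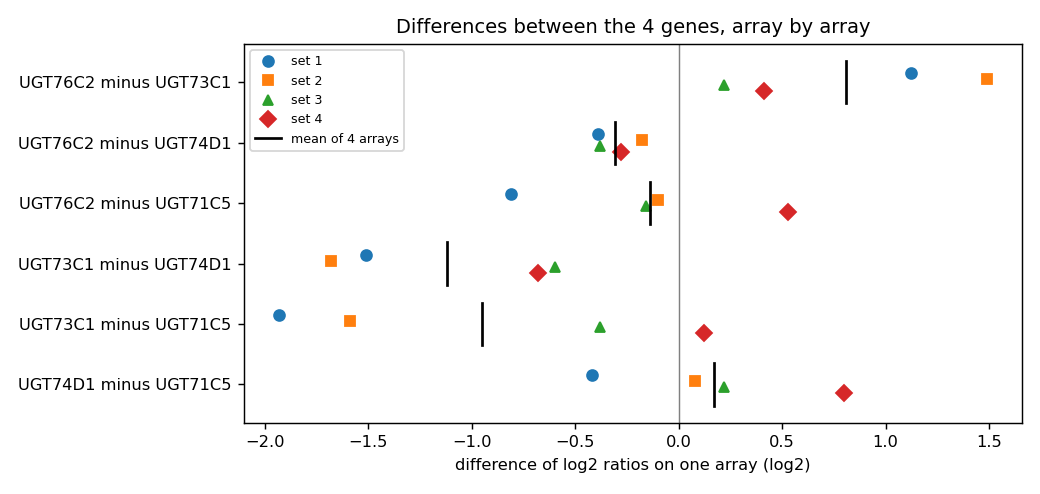
Difference of log2 ratios on the same array (horizontal axis, log2) for the 6 pairs of genes, with 1 marker per array and a black line at the mean. UGT76C2 minus UGT74D1 stays between -0.39 and -0.18, while each of the other 5 pairs spreads over more than 1 unit of log2.

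The 4 genes belong to a large family whose members share a motif that binds the sugar donor. The gene table named 64 UDP-glycosyltransferase genes by symbol or synonym, which misses members known only by locus, and 20 of them had a probe of their own and were tested. Means were positive for 13 and negative for 7 of the 20, where 47.0% of all features were positive. At an unadjusted p under 0.05 there were 6 of 20, where 16.3% of all features had one. The family median was 0.08 on the log2 scale, and 1 gene passed in limma (0.22% of all features did), UGT85A5, at 1.84 ± 0.45 (SD, n = 4; limma adjusted p = 0.0424). That call was lost without set 1, set 2 or set 3 (limma adjusted p = 0.197, 0.146 and 0.0903) and with a term for channel order (0.0601). Its ratio in these 4 fits was 1.67, 1.88, 1.80 and 1.84. In all, the call was lost in 10 of 15 settings. They include the fits with no array turned (ratio 0.33), where the loss follows from the turning itself. The limma adjusted p was 0.158 with limit values kept and arrays turned, and 0.0545 with quantile normalization. It was 0.0501 with arrays scaled to equal spread and 0.0522 with values on at least 2 arrays. Counted from the highest ratio, UGT74D1 stood at rank 3 of 20, UGT71C5 at rank 6, UGT76C2 at rank 10 and UGT73C1 at rank 19. Below UGT73C1 was UGT73D1, at -0.88 ± 0.82 (limma adjusted p = 0.26).

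Other genes of the members' UGT groups were measured as well. A group here holds the genes with a UGT symbol in the gene table, so relatives known only by locus are left out. UGT73C2 is the next gene to UGT73C1 in the order of the gene table, and UGT73C6 and DOGT1 also lie within 5 protein-coding genes of it. The turned values of UGT73C2 were 0.01, -0.59, 0.37 and 0.29 on sets 1 to 4, a mean of 0.02 ± 0.43 (limma adjusted p = 0.969). Both neighbours had their lowest value on set 2, but UGT73C2 lay near 0 on set 1, where UGT73C1 was at -1.19. The other UGT73 genes measured were UGT73C7 at -0.15 ± 0.23 and UGT73B1 at 0.16 ± 0.11 (limma adjusted p = 0.605 and 0.531). Of 10 genes with a UGT73 symbol in the table, 5 were measured and 0 of these passed in limma. Among the 5, 1 gene, UGT73D1, had an unadjusted p under 0.05, where 16.3% of all features had one. DOGT1, also named UGT73C5, is not among the 10.

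Of the UGT76 genes named by symbol, UGT76D1 and UGT76B1, which glucosylate salicylic acid and related compounds, were measured beside UGT76C2. UGT76D1 had a mean of 0.37 ± 0.33 (limma adjusted p = 0.327) and UGT76B1 of 0.02 ± 0.71 (limma adjusted p = 0.976). The turned values of UGT76B1 were 0.15, -0.08, -0.85 and 0.88 on sets 1 to 4, lowest on set 3 and highest on set 4, as for UGT76C2. UGT76C1, the neighbour of UGT76C2 and also a cytokinin N-glucosyltransferase, had no probe of its own. In the UGT74 group, UGT74B1, an enzyme of glucosinolate synthesis, lay on the other side of 0 from UGT74D1, at -0.58 ± 0.48 (unadjusted p = 0.0295, limma adjusted p = 0.259). In the UGT71 group, UGT71B1 was at 0.02 ± 0.27 (limma adjusted p = 0.959). UGT71C3 and UGT71C4 lie next to UGT71C5 and had no probe of their own.

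**Figure D3:**
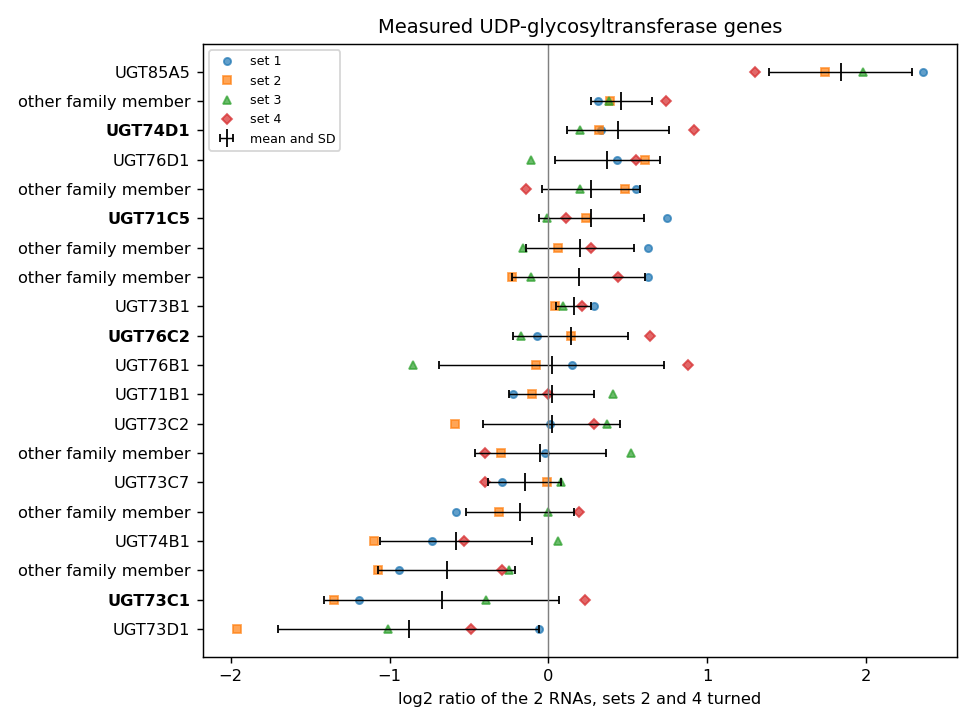
Turned log2 ratio (horizontal axis) of the 20 UDP-glycosyltransferase genes measured, in order of their mean, with 1 marker per array and black bars for the mean and SD. Names are given for the UGT71, UGT73, UGT74 and UGT76 groups and for the highest and lowest gene, and the 4 hormone-conjugating genes, in bold, span ranks 3 to 19 and stay below UGT85A5 at 1.84.

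Other genes that make, break down or sense the same hormones, and genes that conjugate other hormones, were thinly covered. Of 256 genes in 7 lists, members left out, 14 were measured, and 0 of these passed in limma, with adjusted p from 0.263 to 0.976. The 14 include 3 genes from the list for conjugation of other hormones, UGT76B1, UGT76D1 and JMT. At an unadjusted p under 0.05 there were 2 of 14, RR18 and GH3.3, near the 16.3% of all features. Of the 14, 9 were positive and 5 negative, and their median log2 ratio was 0.08, against -0.02 over all features.

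For cytokinin, UGT76C2 and UGT73C1 were the 2 measured genes of 32 in the metabolism list, so the synthesis, activation and oxidation genes of this hormone were not measured by probes of their own. In the signalling list, 2 of 37 genes were measured. RR18, a response regulator of the type that activates transcription, had turned log2 ratios of -0.73, -0.87, -0.02 and -0.28 on sets 1 to 4. All 4 lay below 0, with set 3 close to it (mean -0.47 ± 0.40; unadjusted p = 0.0365, limma adjusted p = 0.277). RR19 was at -0.04 ± 0.25 (limma adjusted p = 0.915).

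For auxin, 4 of the 40 metabolism genes found in the table were measured, UGT74D1 and 3 genes of the GH3 group, whose enzymes join auxin to amino acids. All 4 means were positive, where 47.0% of all features were, and 0 passed in limma. At an unadjusted p under 0.05 there were 2 of 4, UGT74D1 and GH3.3, against 16.3% of all features. GH3.3 had turned log2 ratios of 1.06, 0.88, 0.43 and -0.05 on sets 1 to 4, a mean of 0.58 ± 0.50 (unadjusted p = 0.031, limma adjusted p = 0.263). It was high where UGT74D1 was moderate, and near 0 on set 4, where UGT74D1 was highest. GH3.1 was at 0.13 ± 0.37 and GH3.9 at 0.07 ± 0.13 (limma adjusted p = 0.733 and 0.791).

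Of 71 genes of auxin signalling and transport, 4 were measured, all of the Aux/IAA group of transcriptional repressors, with 2 on each side of 0. IAA31 was at 0.31 ± 0.26, IAA29 at 0.30 ± 0.40, IAA15 at -0.26 ± 0.08 and IAA33 at -0.38 ± 0.52. IAA15 was below 0 on all 4 arrays, between -0.16 and -0.35. None of these 4 passed in limma (adjusted p from 0.315 to 0.457, and 0 had an unadjusted p under 0.05).

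For abscisic acid, 3 of the 23 metabolism genes found were measured, UGT71C5, UGT73B1 and BGLU33, a vacuolar glucosidase that releases the hormone from its glucose ester. BGLU33, which acts against UGT71C5, was at 0.10 ± 0.32 (limma adjusted p = 0.794), with 3 of 4 arrays above 0. All 3 means were positive (47.0% of all features were) and none passed in limma (0 had an unadjusted p under 0.05). The abscisic acid signalling list had 0 of 42 genes measured. Among other hormone-conjugating genes, JMT, which methylates jasmonic acid, was at -0.18 ± 0.52 (limma adjusted p = 0.718).

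**Figure D4:**
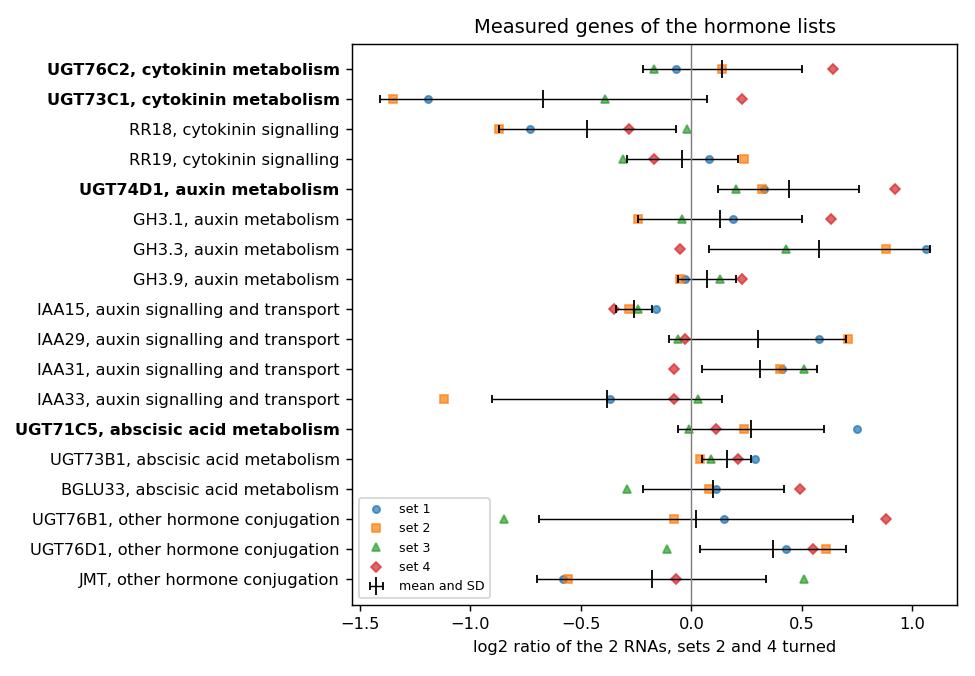
Turned log2 ratio (horizontal axis) of the 18 measured genes of the hormone lists, the 4 hormone-conjugating genes in bold, with 1 marker per array and black bars for the mean and SD. The 4 auxin metabolism genes have means from 0.07 to 0.58, and most genes have arrays on both sides of 0.

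The genes closest to each member were found among 5050 other genes with a value on all 4 arrays, by the Euclidean distance of the turned log2 ratios over these arrays. For UGT74D1 they were AT2G24580, AT1G58120 and AT5G50130, at distances of 0.13, 0.14 and 0.17. AT2G24580 had 0.38, 0.21, 0.17 and 0.87 on sets 1 to 4, also highest on set 4. For UGT76C2 they were AT2G14045, AT5G13590 and AT3G56790, at 0.16, 0.17 and 0.18. For UGT71C5 they were AT5G40470, AT3G16190 and AT1G30540, at 0.15, 0.18 and 0.19.

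UGT73C1 had no gene as close. Its nearest genes were AT4G39320, GI and AT1G58170, at distances of 0.43, 0.49 and 0.51. Of all features, 7.03% had a larger absolute mean than UGT73C1 and 9.5% a larger SD. Whether the larger distances follow from this was not tested. GI, or GIGANTEA, a gene of the circadian clock and of flowering time, had turned log2 ratios of -1.16, -1.35, 0.09 and 0.16 on sets 1 to 4. It matched UGT73C1 closely on sets 1 and 2 and less so on set 3. After quantile normalization 0 of these 3 genes were among the nearest of UGT73C1. With only 4 arrays, a small distance is a description of these values.

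**Figure D5:**
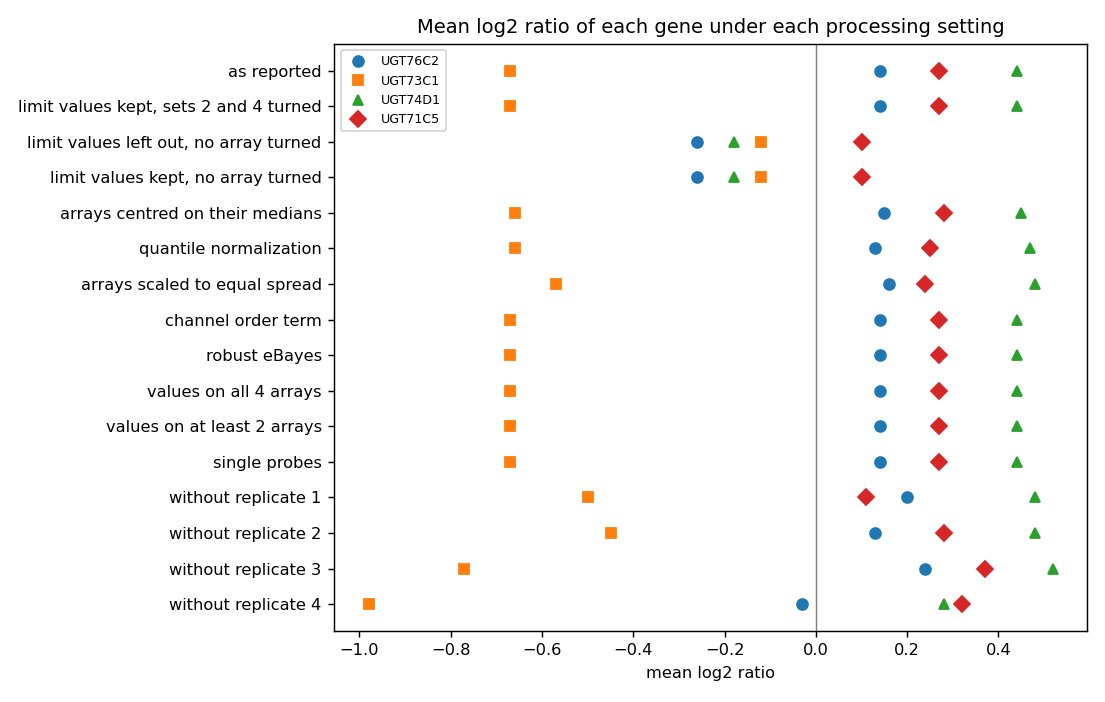
Mean log2 ratio (horizontal axis) of each of the 4 genes as reported and under 15 other processing settings (vertical axis). UGT73C1 stays below 0 and UGT71C5 above 0 throughout, while UGT74D1 and UGT76C2 lie at -0.18 and -0.26 where no array is turned, and UGT76C2 is at -0.03 without replicate 4. Where no array is turned, a ratio alike on all arrays cancels, so the sign of any gene there says nothing of stability.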

How the data were processed

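Each deposited value is a log2 ratio between the channels of an array, normalized by the authors with a published method, per the labels. No source used here names its steps, its software, its background correction or the dyes. The base of the log2 follows from the deposited values, which stop at plus and minus the log2 of 100. Scale is thus known, but numerator and direction are not. Column medians over probes were -0.003, 0.061, 0.038 and 0.03 on sets 1 to 4, and no centring was added. The number of value columns of no sample was 0.

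Of 26474 probes, the platform annotation gave 1 gene for 5784, several for 7497 and none for 13193. Of the 5784, 5756 matched a locus of the TAIR10.1 gene table, used for names and neighbours only. Empty spots (424) and 35 control rows were left out, and so were 2765 probe values at the limits. Sets 2 and 4 were turned. Probes of a gene were averaged per array, and features with values on at least 3 arrays were tested (25415 tested, 718 left out). Two-sided tests of each mean against 0 were made in limma 3.58.1 (lmFit, eBayes; R 4.3.3), and p-values were adjusted by Benjamini-Hochberg. The eBayes step moderates the variance of each gene with that of all features. The limma p-values and intervals therefore do not rest on the printed SDs alone. The number of arrays, 4, limits the precision, and the fit was tested on simulated data.

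The members, the gene lists, the treatment of limit values and the turning were chosen with earlier results of these data known. Gene lists were written by symbol and matched to the gene table, each locus counted once per list, and 4 symbols shared with genes of other function were matched by locus. Genes named are the members, the measured genes of lists with at most 8, the UGT71, UGT73, UGT74 and UGT76 genes, the family's highest and lowest gene and the 3 nearest genes of each member. Alternatives changed limit values, orientation, centring, scaling, the fit, the filters and the arrays used.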

Additional observations from a re-analysis of the deposited data

How the results depend on the processing

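Under each of 15 alternatives 0 of the 4 hormone-conjugating genes passed, and their limma adjusted p ranged from 0.203 to 1. UGT73C1 and UGT71C5 kept their sign in all 15. Their means were -0.12 and 0.10 where no array was turned. A ratio alike on all arrays cancels in such a mean, so its sign says nothing of stability. With no array turned, whether limit values were kept or left out, the means were -0.26 for UGT76C2 and -0.18 for UGT74D1, and the signs also turned for UGT74B1 (0.24), UGT76D1 (-0.21), UGT76B1 (-0.37), UGT73D1 (0.34), UGT73C7 (0.05), JMT (0.14), IAA15 (0.06), IAA29 (-0.04), IAA33 (0.21), RR18 (0.10), GH3.1 (-0.06), GH3.9 (-0.02) and BGLU33 (-0.19). This follows from the turning itself. Leaving out each array gave -0.03 to 0.24 for UGT76C2, -0.98 to -0.45 for UGT73C1, 0.28 to 0.52 for UGT74D1 and 0.11 to 0.37 for UGT71C5. It crossed 0 for RR19 (-0.13 to 0.05), GH3.1 (-0.03 to 0.26), BGLU33 (-0.04 to 0.23), UGT73C2 (-0.10 to 0.22), UGT76B1 (-0.26 to 0.31) and UGT71B1 (-0.11 to 0.10). Without crossing 0, the mean moved by over 1.5 times for the members UGT74D1 and UGT71C5, with the ranges given above. It also did so for UGT73D1 (-1.15 to -0.52), UGT73C7 (-0.23 to -0.07), JMT (-0.40 to -0.04), IAA29 (0.16 to 0.42), IAA33 (-0.52 to -0.14) and GH3.9 (0.02 to 0.11). UGT76B1 was at -0.02 after quantile normalization. The family median ran from 0.05 to 0.21 without 1 array. The pairs of members in the same order on every array left numbered 3 to 5, against 3 of 6 on all arrays. With no array turned their number was 0, which for those 3 pairs again follows from the turning itself.

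The 56 features called, 50 positive and 6 negative, are the background of the counts above at an adjusted p under 0.05. They depend strongly on the settings. Their number was 1 with limit values kept and arrays turned, 0 with limit values left out and no array turned (852 at an unadjusted p under 0.05), 152 with no array turned and limit values kept, 18 with quantile normalization, 1 with the channel order term, 109 with robust eBayes and 140 with values on all 4 arrays. Without 1 array it was 0 to 38, with fewer residual degrees of freedom. The split was 87 positive to 22 negative with robust eBayes, 114 to 26 with values on all 4 arrays, 17 to 1 with quantile normalization, 27 to 11 without replicate 4 and 152 to 0 with limit values kept and arrays unturned. What causes these changes was not tested. Signal over background is unknown here, since only ratios were used.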
